A study of Mus musculus with 4 samples.

Results

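The proteasome genes of mouse sciatic nerve are described here. The set was taken by symbol: every gene whose name starts with Psma, Psmb, Psmc, Psmd, Psme, Psmf or Psmg followed by a number, without Psmb8, Psmb9 and any symbol marked -ps for pseudogene. This gave 48 of the 50593 genes in the deposited expression table. RNA from sciatic nerve of mice of strain 129S1/SvImJ aged 6 months was made into libraries for Ion Torrent sequencing. The labels give 4 samples, 2 of HSF V30M and 2 of HSF WT, whereas the study's methods give n = 4 without saying whether this is per group. Both groups carried a heterozygous deletion of Hsf1, which encodes a transcription factor of the heat shock response. HSF V30M mice also carried a transgene for human transthyretin with the V30M mutation, on a background null for the endogenous Ttr gene, and HSF WT mice were wild type for transthyretin by their description. The promoter of the transgene and whether a sample was 1 mouse or a pool were not given in the sources used here. The comparison asked how nerves of a mouse model of transthyretin amyloidosis differ from nerves of its control group.

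The proteasome degrades proteins that have been tagged with ubiquitin. Its core particle is a stack of rings, with outer alpha rings that gate the entry and inner beta rings that hold the protease sites. A regulatory particle caps the stack; its lid takes the ubiquitin chain off and its base, a ring of ATPases with scaffold subunits, unfolds the protein and threads it inward. Core and regulatory particle together form the 26S proteasome. Other caps (activators) can take the place of the regulatory particle, an inhibitor is also known, and dedicated chaperones help the rings to assemble. Cells exposed to interferon exchange the protease subunits for the immunoproteasome forms. In peripheral nerve, as in other tissues, all cell types hold proteasomes.

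The deposited table held 1 FPKM value (sequenced fragments, scaled to transcript length and to the size of the library) for each gene and group, so no spread between mice and no test between groups could be computed, and every value below is a single estimate without SD. Where 2 values are set against each other, HSF V30M comes first and HSF WT second. Ratios are log2((HSF V30M + 1)/(HSF WT + 1)), on which scale changes of genes with low FPKM are understated. The FPKM worth of a single fragment was read from genes with 1 transcript. The reading assumed 2 libraries per group, as labelled, with depths within a set range of each other, and did not test that number. Read in this way, the 2 libraries differed 1.18-fold in depth in HSF V30M and 1.35-fold in HSF WT. The intervals given below are exact Poisson 95% intervals of the fragments behind an FPKM value. They cover counting error only, and neither the spread between mice nor the division of reads among transcripts. The mouse Ttr entry was listed at 6.1 FPKM against 0, although HSF V30M mice are described as Ttr-null. The table has no separate entry for the human transgene, and whether its reads were counted under mouse Ttr was not tested. The groups are named here as labelled. Hsf1 was listed at 7.94 against 15.0 FPKM, although both groups are described as heterozygous for its deletion. Why these values differ was not tested. The 10 Schwann cell markers were all detected, with a summed FPKM of 12776 against 11162.

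Averaged over the groups, 46 of the 48 genes reached an FPKM of 1, and the counts that follow are over these 46. The other 2 are the tissue-restricted subunits Psma8, which takes the place of Psma7 in the testis, at 0.14 against 0.172 FPKM, and Psmb11 of the thymus, at 0.22 against 0.123 FPKM. Psma8 rested on about 3 against 2 fragments and Psmb11 on about 20 against 8, so no difference was detectable at this depth for either. No gene of the set was listed at 0. The highest was Psmc3, with a mean of 122 FPKM. The log2 ratio was under 0 for 33 genes (71.7%), against 49.6% of the 15620 genes in the table that reached that FPKM. The median log2 ratio was -0.14, against 0.00 over all genes, and the ratios ran from -0.66 to 0.65. The SD of the ratios across the 46 genes was 0.29, against 0.89 across all genes, whose ratios ran from -12.2 to 10.5. The middle 50% of ratios differed less in width, from -0.31 to 0.01 for the set and from -0.22 to 0.23 for all genes. The smaller SD was not particular to the set. Among the lists described below, the SD was 0.27 for complex I, CCT chaperonin and other pathway genes, and 0.89 for ribosomal protein genes. Ratios of the ribosomal protein genes ran from -6.09 to 3.61, with the middle 50% from -0.24 to 0.13. The set also had higher levels than all genes, with a median FPKM of 25.3 against 28.5, where all genes had 8.67 in both groups. The study used a limit of 1.5-fold together with a limit of significance. Here 1.5-fold or more was applied to the ratios of FPKM + 1 without a test. It was met by 3 genes (6.52%), against 16.7% of all genes. These were Psme2, which was higher in HSF V30M (2.17% of the set, against 8.22% of all genes), and Psmc3 and Psmc3ip, which were lower (4.35%, against 8.44%). Psma7, at 1.49-fold lower, was just outside this limit, and Psmc3ip, at 1.53-fold lower, was just inside it. At a smaller limit, 25% higher or 20% lower, 15 genes passed (32.6%, against 36.1%), 11 of them lower (23.9%, against 17.7%) and 4 higher (8.70%, against 18.4%), and 0 passed 2-fold, against 7.92% of all genes. The counting intervals of the groups did not overlap for 18 genes (39.1%), against 38.5% of the 12679 genes for which they could be computed, a share close to that of all genes. These shares were not matched for level, and intervals are narrower for genes with more fragments. Of these 18, 13 were lower in HSF V30M (28.3%, against 18.5%) and 5 were higher (10.9%, against 20.1%). Some reads may belong to other genes, since 21 of the 48 genes share a locus with another gene and 10 have a near-identical copy elsewhere in the genome. Without the former, 16 of 25 genes were lower, against 50.4% of all genes in a locus of their own, with a median log2 ratio of -0.08, and 1 was past 1.5-fold, against 15.3%. Without the latter, 25 of 36 genes were lower, with a median of -0.13, and the 2 past 1.5-fold were both lower.

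**Figure D1:**
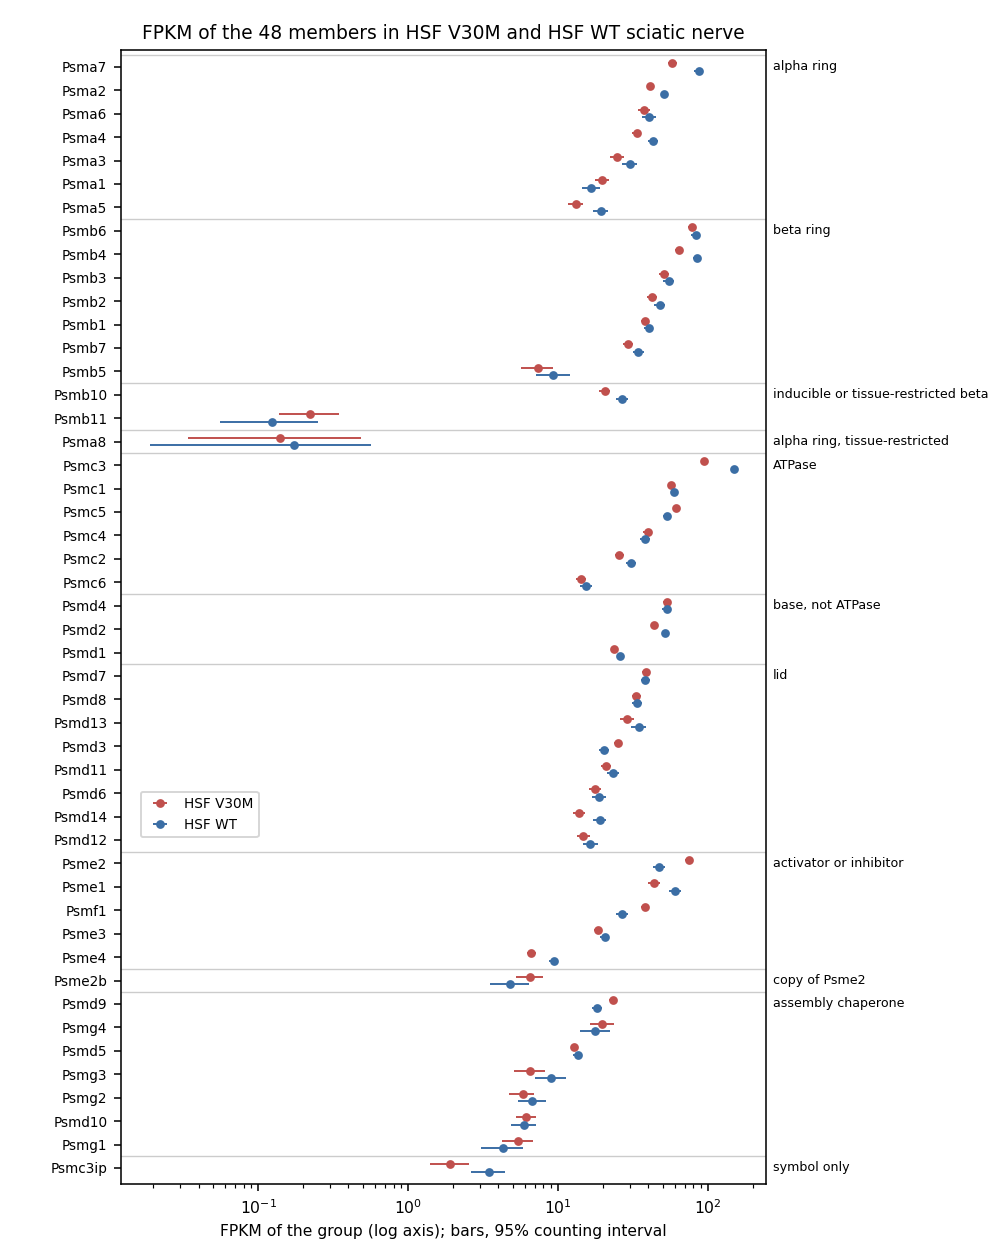
Levels of the 48 proteasome genes, as FPKM on a log axis, in sciatic nerve of HSF V30M (red) and HSF WT (blue) mice, ordered by role and level, with bars for the 95% counting interval. All genes except Psma8 and Psmb11 lie above 1 FPKM, and Psmc3 is the highest in both groups.

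Promoter sequence of 3 genes is shown. It consists of the stretches before the RefSeq start of Psmb5, a protease subunit whose window holds matches to both an antioxidant response element core (TGACNNNGC) and a heat shock element (GAANNTTC), and of Psme2 (the first of its 2 listed starts) and Psmf1, the genes with the highest ratios of HSF V30M to HSF WT. The 3 were chosen after their values and motif matches had been seen. The sequences come from the RefSeq promoter table on build GRCm38.p6, and were cut to the longest stretch without an annotated exon within 250 bases before the start. Capitals mark matches, on either strand, to any of the motifs named below, of which GGGCGG is read as CCGCCC in Psme2.
Psmb5, chr14:54618023-54618245 (- strand): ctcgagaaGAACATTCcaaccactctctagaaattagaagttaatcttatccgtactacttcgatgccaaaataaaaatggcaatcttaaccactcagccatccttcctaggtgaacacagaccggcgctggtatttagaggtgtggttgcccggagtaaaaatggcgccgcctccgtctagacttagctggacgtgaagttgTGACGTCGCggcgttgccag
Psme2, chr14:55591114-55591351 (- strand): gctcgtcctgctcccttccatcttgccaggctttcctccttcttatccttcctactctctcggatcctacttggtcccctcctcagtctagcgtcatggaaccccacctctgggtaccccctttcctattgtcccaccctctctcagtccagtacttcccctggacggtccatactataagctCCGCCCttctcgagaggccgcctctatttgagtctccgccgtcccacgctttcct
Psmf1, chr2:151741311-151741560 (- strand): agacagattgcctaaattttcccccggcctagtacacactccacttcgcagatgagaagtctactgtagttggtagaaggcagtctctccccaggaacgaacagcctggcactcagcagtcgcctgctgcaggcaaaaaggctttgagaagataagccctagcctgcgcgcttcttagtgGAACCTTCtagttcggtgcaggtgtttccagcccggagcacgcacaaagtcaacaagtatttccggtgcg
RefSeq promoters were found for 40 of the 48 genes, as 43 windows of 300 bases (250 before the start and 50 after). TGACNNNGC was in 14.0% of them, against 12.4% of all 32851 promoters. GAANNTTC was in 4.65%, against 7.86%, and its counterpart TTCNNGAA was in 4.65%, against 8.52%. CCAAT was in 32.6%, against 37.4%. Further motifs were added after the promoters had been seen: GGGCGG was in 53.5% against 35.7%, TTCNNNGAA (a gamma-activated site) in 4.65% against 8.30%, and the core of the interferon-stimulated response element (GAAA, 2 bases of any kind and GAAA) in 11.6% against 3.44%. Both strands were read and matches to different motifs may overlap. A match describes letters in a window and does not show binding.

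Of the 7 alpha ring genes, 6 were lower in HSF V30M, with a median log2 ratio of -0.30. Beside this count and those of the other roles below, 49.6% of all genes were lower. Psma7 (ENSMUSG00000027566, chr2:180036374-180042433, minus strand, GRCm38), which takes a place in the ring that Psma8 fills in testis, was at 57.84 FPKM (95% interval 54.1 to 61.7) against 86.6 (81.2 to 92.3), a log2 ratio of -0.57. Psma5 was at 13.15 against 19.3 FPKM, with a log2 ratio of -0.52. Both pairs of intervals were apart, as were those of Psma4 and Psma2. Psma4 was at 33.43 against 43.1 FPKM, and Psma2 at 41.09 against 50.9. For Psma3 (24.81 against 30.1 FPKM) and Psma6 (37.74 against 40.4) the intervals of the groups overlapped. Psma1 was the exception, at 19.63 against 16.6 FPKM, with overlapping intervals. The alpha subunits enter the ring in equal numbers, whereas their FPKM spanned 4.40-fold from Psma5 to Psma7 in HSF V30M mice and 5.21-fold from Psma1 to Psma7 in the control group.

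The 7 constitutive beta ring genes were all lower in HSF V30M, with log2 ratios from -0.40 to -0.07 and a median of -0.17. The intervals were apart only for Psmb4, a structural subunit, at 63.71 FPKM (60.4 to 67.2) against 84.4 (79.9 to 89.2). The other structural subunits had overlapping intervals, with Psmb2 at 42.26 against 47.7 FPKM, Psmb3 at 51.02 against 54.7 and Psmb1 at 38.16 against 40.3. So had the protease subunits. Psmb6, which holds the caspase-like site, was at 78.75 against 82.8 FPKM. Psmb7, with the trypsin-like site, was at 29.41 against 34.3 FPKM, and shares 405 exon bases with Nek6 on the opposite strand. Psmb5 (ENSMUSG00000022193, chr14:54614119-54618022, minus strand), with the chymotrypsin-like site, was at 7.35 against 9.33 FPKM, the lowest of the ring in both groups, and the level of Psmb6 was 10.7-fold that of Psmb5 in HSF V30M mice and 8.88-fold in the control group. Reads of Psmb5 may also have been counted elsewhere, since the processed pseudogene Gm3375 matches 796 bases of its transcript at 98.9% identity and was itself listed at 9.34 against 9.97 FPKM. The sum of both was 16.7 against 19.3 FPKM, with a log2 ratio of -0.20.

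The immunoproteasome subunits were detected in both groups. Psmb10, the interferon-inducible form of Psmb7, was at 20.46 FPKM (18.7 to 22.4) against 26.8 (24.4 to 29.4), a log2 ratio of -0.37. Psmb9, the form of Psmb6, was at 8.34 against 12.5 FPKM with intervals apart, and Psmb8, the form of Psmb5, at 29.77 against 33.3 FPKM with overlapping intervals. The level of Psmb10 over Psmb7 was 0.696 against 0.781, and that of Psmb9 over Psmb6 was 0.106 against 0.151. The level of Psmb8 over Psmb5 was 4.05 against 3.58. This ratio leaves out any Psmb5 reads counted under Gm3375, and the sum of Psmb5 and Gm3375 was 16.7 against 19.3 FPKM. Of the 8 interferon response genes in a marker list, 5 were higher and 3 lower in HSF V30M, with a median log2 ratio of 0.19. Macrophage markers were lower in HSF V30M for 5 of 6 genes, with a summed FPKM of 76.8 against 109, and B cell markers for 7 of 7 genes, with 3.60 against 31.2. T cell markers were lower for 4 of 5 genes, with 1.73 against 7.64 FPKM. These counts and sums take every listed gene, whatever its FPKM. Their part in the lower immunoproteasome values was not tested.

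**Figure D2:**
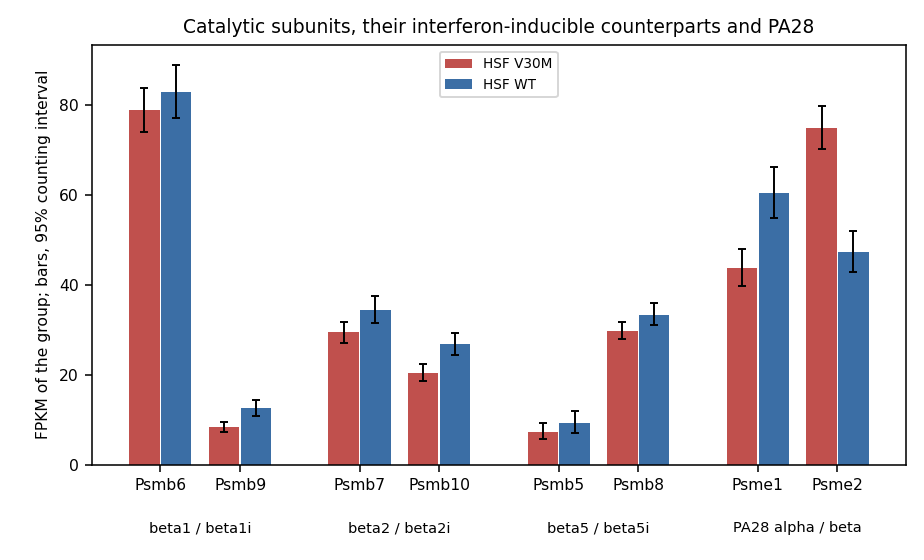
FPKM of the protease subunits of the beta ring, their immunoproteasome forms and the PA28 genes in HSF V30M (red) and HSF WT (blue), with bars for the 95% counting interval. Psme2 is the only one of the 8 genes that is higher in HSF V30M, at 74.77 against 47.2 FPKM.

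Of the 6 ATPase genes of the base, 4 were lower and 2 higher in HSF V30M, with a median log2 ratio of -0.09. Psmc3 (ENSMUSG00000002102, chr2:91054009-91066369, plus strand) had the lowest ratio of the set, with 94.83 FPKM (91.2 to 98.6) against 150.1 (145 to 156), a log2 ratio of -0.66. Psmc3 shares a locus and 215 exon bases, on the opposite strand, with the zinc transporter gene Slc39a13, which was at 44.36 against 31.8 FPKM, and since strandedness was not stated, reads in the shared bases cannot be told apart. Psmc2 was lower, at 25.63 against 30.7 FPKM, and Psmc5 higher, at 61.47 against 53.4 FPKM, both with intervals apart. Psmc1 (56.69 against 59.7 FPKM), Psmc4 (39.59 against 37.9) and Psmc6 had overlapping intervals, and Psmc6 was the lowest of the ring at 14.18 against 15.4 FPKM. Among the base scaffold genes, Psmd2 was at 43.44 against 51.9 FPKM with intervals apart, Psmd1 at 23.59 against 26.04, and the ubiquitin receptor Psmd4 at 53.15 against 53.1 FPKM.

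Of the 8 lid genes in the set, 6 were lower in HSF V30M, with a median log2 ratio of -0.11. Psmd14, the deubiquitinase that removes the chain, was at 13.81 FPKM (12.5 to 15.2) against 19.0 (17.2 to 20.99), a log2 ratio of -0.43. Psmd3 went the other way, at 24.98 FPKM (23.5 to 26.5) against 20.3 (18.7 to 22.0). The other 6 lid genes had overlapping intervals, with log2 ratios from -0.26 for Psmd13 to 0.01 for Psmd7, the highest of the lid at 38.45 against 38.1 FPKM. Psmd13 was at 28.84 against 34.7 FPKM, in a locus of 11 genes. Psmd12 was at 14.77 against 16.4 FPKM, Psmd11 at 21.01 against 23.3, Psmd6 at 17.76 against 18.9 and Psmd8 at 33.34 against 33.7. Across the lid the levels spanned 2.78-fold in HSF V30M mice and 2.32-fold in the control group, less than the 6.69-fold and 9.73-fold of the ATPases.

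Summed over their genes in the set, the core particle was at 538 against 641 FPKM, a change of -16.0%, and the regulatory particle at 606 against 683 FPKM, a change of -11.3%. Subunits with other symbols, such as Adrm1 (given below), are not in these sums or the next. Over the 31 genes of the set that encode 26S subunits the sum was 1144 against 1323 FPKM, with 25 genes lower and 6 higher. Without Psmc3 the change was -10.6%. With only the 18 of these genes that have a locus of their own, it was -11.0%, with 14 genes lower. Beside these counts, 49.6% of all genes were lower, and 50.4% of all genes in a locus of their own. FPKM are relative to the rest of each library, and in whole nerve a difference in the mix of cells and a difference in RNA per cell cannot be told apart. Markers of other cells moved with the groups: neutrophil markers were higher in HSF V30M in 6 of 6 genes and erythroid markers in 6 of 6, while skeletal muscle markers were lower in 7 of 8 and adipocyte markers in 6 of 6. The exception was Myh1, at 0.53 against 0.224 FPKM. Summed FPKM were 110 against 28.2 for neutrophils, 291 against 101 for erythroid cells, 42.7 against 150 for muscle and 1976 against 2638 for adipocytes. Their part in the proteasome values was not tested.

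**Figure D3:**
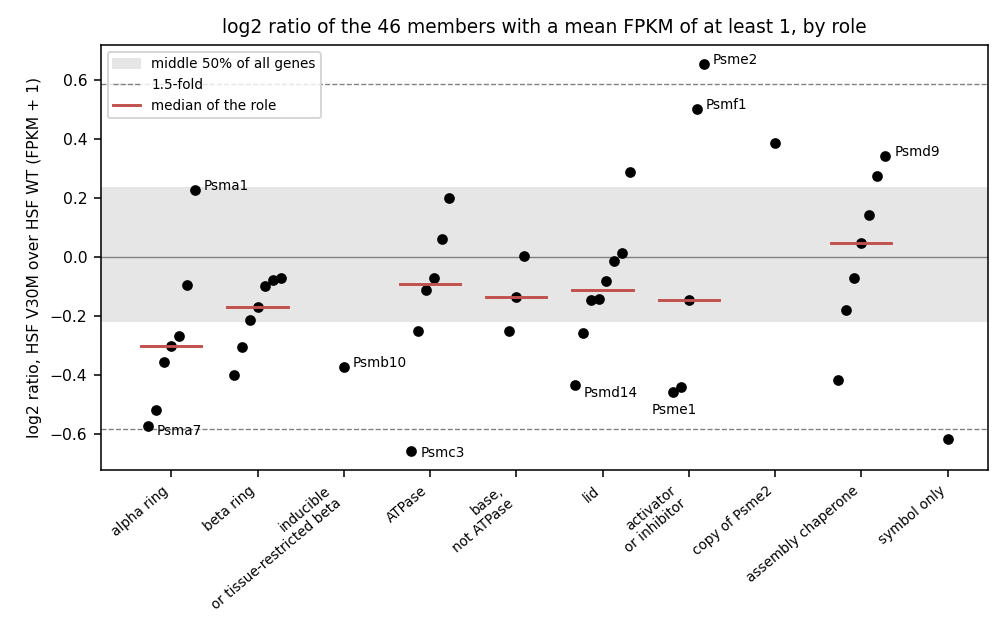
log2 ratios (HSF V30M to HSF WT) of the 46 genes that reached an average FPKM of 1, by role, with red lines for the median of a role, grey for the middle 50% of all genes and dashed lines for 1.5-fold. The alpha ring median (-0.30) is the lowest of the roles with 3 or more genes, and Psme2 and Psmc3 lie beyond the dashed lines, as does Psmc3ip under symbol only.

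The activators and the inhibitor differed in direction. Psme1 and Psme2 encode the alpha and beta chains of PA28, an interferon-induced cap, and lie on chr14 (GRCm38) with 5911 bases between them, Psme1 at chr14:55578123-55581529 on the plus strand and Psme2 at chr14:55587441-55591113 on the minus strand. Psme2 was at 74.77 FPKM (70.2 to 79.6) against 47.2 (42.9 to 51.9), a log2 ratio of 0.65 and the highest of the set. Psme1 was at 43.7 FPKM (39.8 to 47.8) against 60.4 (54.9 to 66.2), a log2 ratio of -0.46. The intervals of both genes were apart, in opposite directions. Psme2 was thus 1.71-fold the level of Psme1 in HSF V30M mice and 0.782-fold in the control group. Psme2b, a copy of Psme2 with 1 exon and 99.4% identity over 794 bases, was at 6.52 against 4.76 FPKM, and the sum of Psme2 and Psme2b had a log2 ratio of 0.63. Psmf1, which encodes the inhibitor PI31, was at 38.17 FPKM (35.8 to 40.6) against 26.7 (24.4 to 29.2), a log2 ratio of 0.50. Psme4, the PA200 activator, was lower at 6.64 against 9.36 FPKM with intervals apart, and Psme3, the nuclear activator PA28 gamma, was at 18.46 against 20.5 FPKM with overlapping intervals.

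The assembly chaperones were spread about 0, with 3 genes lower and 4 higher and a median log2 ratio of 0.05. Psmd9 was at 23.32 FPKM (22.0 to 24.7) against 18.2 (16.9 to 19.6), in a locus that holds 12 genes. Psmg1 was the lowest, at 5.39 against 4.28 FPKM, and Psmg3 was at 6.5 against 9.02 FPKM, both with overlapping intervals. The other 4 had overlapping intervals, with log2 ratios from -0.18 to 0.14: Psmg2 was at 5.8 against 6.71 FPKM, Psmd5 at 12.84 against 13.6, Psmd10 (gankyrin) at 6.16 against 5.93 and Psmg4 at 19.7 against 17.8. The symbol rule also took Psmc3ip, which is no subunit but a factor of meiotic recombination. It was at 1.91 against 3.46 FPKM, a log2 ratio of -0.62 resting on a low-side estimate of 46 against 58 fragments, and it shares 385 exon bases with Mlx on the opposite strand.

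Other genes of the pathway were described from a list of 28, of which 27 were in the table. Of these, 15 were lower and 12 higher in HSF V30M, with a median log2 ratio of -0.06, and only Ubqln2, which delivers ubiquitinated proteins, was past 1.5-fold, at 15.09 against 8.25 FPKM, where 16.7% of all genes were past it. Adrm1, a ubiquitin receptor of the base, was at 24.13 against 22.3 FPKM, and Pomp, the maturation factor of the core particle, at 47.38 against 56.4. Nfe2l1, the transcription factor that raises proteasome genes when the proteasome is inhibited, was at 170 against 158 FPKM. In other complexes of fixed composition, 6 of 8 CCT chaperonin genes were lower, with a median log2 ratio of -0.12, and 22 of 35 complex I genes, with a median of -0.08. The cytosolic ribosomal protein genes had a median of -0.06, with 49 of 83 lower. No difference between these medians and that of the proteasome genes was tested.

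**Figure D4:**
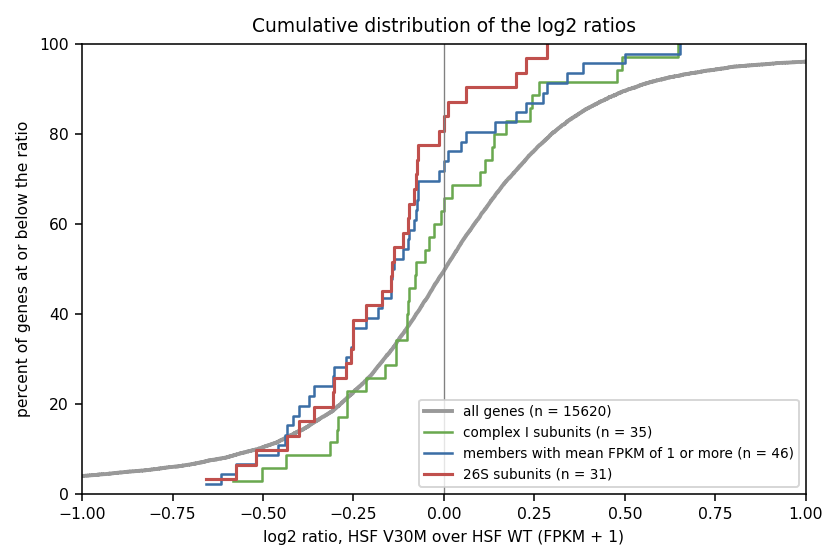
Cumulative percent of genes at or below a log2 ratio, for all genes (grey, n = 15620), complex I subunits (green, n = 35), the proteasome genes that reached an average FPKM of 1 (blue, n = 46) and the 31 of them that encode 26S subunits (red). At a ratio of 0 the blue line stands at 71.7% and the grey line at 49.6%.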

How the data were processed

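RNA from sciatic nerve of 4 samples (2 per group) was sequenced. Per the submitters' processing notes the tools were STAR, Cufflinks and Cuffdiff on GRCm38, with versions, annotation and strandedness not given in the sources used here. The authors deposited 1 Cuffdiff table with a pooled FPKM per gene and group, written with decimal commas; its fold changes, test statistics, p-values and q-values were not used. No value per mouse was at hand, so no test was run. Genes without an estimate (23) were left out.

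Ratios were computed here as log2((HSF V30M FPKM + 1)/(HSF WT FPKM + 1)) with a minimum mean FPKM of 1. Named genes were the protease subunits, the 5 highest and 5 lowest ratios, the highest and lowest level in each role, genes past 1.5-fold, and set pathway genes; a few others are named to account for a group. Fragment numbers were read from single-transcript genes (201 bases taken from the length), where 98.2% of 1396 HSF WT values lay within 2% and 98.9% of 435 HSF V30M values within 5% of whole fragments. This is a weak check in HSF V30M, whose values have 2 decimals. Intervals use the shortest coding transcript and the shallower library. Copies were transcripts of GENCODE M21 with at least 95% identity over 150 bases (BLAST+ 2.17.0) that share no exon bases with the gene. Promoters were those of RefSeq; GC box and interferon motifs were added after these had been seen. Python 3.11.15, pandas 2.3.3 and scipy 1.17.1 were used, and the scripts were tested on simulated data. The members and the gene lists were chosen with earlier results of these data known.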

Additional observations from a re-analysis of the deposited data

How the results depend on the processing

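The median log2 ratio of the proteasome genes lay between -0.15 and -0.08 over 7 settings, and the SD across genes between 0.26 and 0.31. The count past the fold depended on the limit: 15 genes passed at 25% higher or 20% lower (11 lower, 4 higher) and 0 passed 2-fold (0 lower, 0 higher), where 36.1% and 7.92% of all genes passed. With a minimum mean FPKM of 5, 1 gene was past the fold and lower, and without Psmc3ip, Psma8 and Psmb11 also 1. Without the 21 genes in a shared locus, 1 gene of 25 was past the fold (0 lower), against 15.3% of all genes in a locus of their own, 16 were lower in HSF V30M and the median was -0.07767. Without the 10 genes with a near-identical copy elsewhere, an alternative added after seeing the data, 2 of 36 were past the fold (2 lower, 0 higher), against 16.7% of all genes, 25 were lower and the median was -0.13. Of the other pathway genes, 5 passed the smaller limit and 0 passed 2-fold. The median of the assembly chaperones turned to -0.01231 with a minimum of 5 FPKM, where Psmg1 is no longer counted. In 70 further comparisons, counts and SDs stayed within 1.5 times the reported one and medians within counting error. In 96 comparisons of single genes, only the pseudocount or the scaling was changed, and no ratio moved beyond counting error. The median-of-ratios scaling (factors of 1.001 and 0.999) shifted ratios by about -0.0036, too little to pass that error for any gene. With a pseudocount of 0.1, Psmb11 went from 0.12 to 0.52, within its wide counting error. The sign changed for 1 ratio: Psmd4, at 0.00 as reported, was at -0.002733 under the scaling, which made 34 genes lower in place of 33. No paired analysis was possible because each group has a single pooled FPKM and individual mice have none, and leaving out a replicate was not run for the same reason. Neither the spread between mice nor the number of mice behind a value is known, so intervals here cover counting error only.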
